A study of Medicago truncatula with 9 samples.

Results

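The alkali-treated seedlings of Medicago truncatula were compared directly with the salt-treated seedlings, to find the miRNAs whose levels separate carbonate stress from neutral salt stress. The members were the 3 alkali libraries (AS1, AS2 and AS3) and the 3 salt libraries (SS1, SS2 and SS3), chosen by their treatment labels, which is 6 of the 9 libraries of the study. All seedlings were of the genotype R108, a line used widely for transformation, and were germinated on filter paper in Petri dishes and harvested whole after 72 h, as 3 day-old seedlings. The salt group (SS) was given a mixture of sodium chloride and sodium sulfate at 20 mM, and the alkali group (AS) a mixture of sodium carbonate and sodium bicarbonate at 5 mM. The 3 distilled water libraries (DW1, DW2 and DW3) were left out of the filter, the scaling and every test of the main analysis. They entered only the alternative that fits all 9 libraries together, and their levels are printed beside those of the other groups. The treatments differ in their anions, their concentration and their alkalinity at the same time, and these cannot be told apart in this design. The paper reports that salt seedlings were shorter on average than alkali seedlings, with cotyledons still closed and root and stem not clearly distinct. Seedlings of the same age thus differed in growth between the groups, and its part in the differences below was not tested. The protocol describes 1 dish per treatment and 3 biological replicates, and does not say whether the replicates came from separate dishes, so the p-values measure only the spread between these libraries.

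A plant miRNA is a short RNA, mostly of 21 nt, that is cut as a duplex from a folded precursor and guides an Argonaute protein to a messenger RNA that pairs with it closely, so that the messenger is cut or its translation is held back. Some families are tied to mineral supply in Arabidopsis: miR395 accumulates when sulfate is short and targets ATP sulfurylases and a sulfate transporter, and miR397, miR398 and miR408 accumulate when copper is short and target copper proteins. Small RNAs of 24 nt are made by another Dicer-like enzyme, and most small RNAs of that length in plants are heterochromatic siRNAs that direct DNA methylation.

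Mature sequences of miRNAs that differ between alkali and salt are shown first, because the members of a family share or nearly share them. They are written 5′ to 3′ as given in the tables of the study, with bases 2 to 8 (the seed) in capitals. Of the 26 miRNAs called below, 20 have a sequence there, and these hold 9 distinct sequences. None is given there for mtr-miR156g-3p, mtr-miR156g-5p, mtr-miR5277 and the predicted unconservative_8_14529, unconservative_1_30619 and unconservative_1_31442. The first group below holds each distinct sequence of miRNAs higher in alkali, with mtr-miR398a-3p, which was not higher, for comparison.
mtr-miR395a: aUGAAGUGuuugggggaacuc
mtr-miR395g: uUGAAGUGuuugggggaacuc
mtr-miR398b: uGUGUUCUcaggucgccccug
mtr-miR398a-3p: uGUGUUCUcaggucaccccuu
mtr-miR408-3p: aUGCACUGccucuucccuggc
mtr-miR5232: uACAUGUCgcucucaccugaa
The second group was lower in alkali.
mtr-miR5205a: cAUACAAUuugggacggagggag
mtr-miR5205b: cUUAUAAUuagggacggagggagu
mtr-miR5205d: cUUAUAAUuagggacggagguagu
mtr-miR5283: cGUGCGUAucgggauguaucggaa
Of the 12 miR395 miRNAs called, 11 have the sequence of mtr-miR395a, and mtr-miR395g differs from it by A1U, with positions counted from 1 at the 5′ end. The 13 miR395 entries with a sequence share the seed UGAAGUG. mtr-miR398b and mtr-miR398c have the same sequence, and mtr-miR398a-3p differs from mtr-miR398b by G15A and G21U, outside the seed. Among the lower miRNAs, mtr-miR5205d differs from mtr-miR5205b by G21U.

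The count table held 905 entries, of which 684 are known miRNAs and 221 are predicted ones. Summed miRNA counts ran from 3918174 to 7191272 per library in salt and from 4135854 to 6503979 in alkali. They came to 13.9 to 16.1 miRNA counts per 100 clean reads in salt and 12.7 to 19.9 in alkali. Levels are given as CPM, which is the count per 1000000 of an effective library size, the miRNA total multiplied by a TMM factor that lines up the middle of the miRNAs, so these levels are no shares. The factors were 0.952 to 1.148 in salt and 0.840 to 1.04 in alkali, and a count of 3 corresponds to 0.368 to 0.804 CPM in the salt libraries. The leading principal component of the log2 CPM values carried 64.5% of their variance, and on it the salt libraries lay at -11.2 to -4.39 and the alkali libraries at 4.89 to 11.9. Entries with identical or nearly identical counts, such as those of miR395, entered the components separately. How much of the separation rests on miR395 was not tested.

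Of the 643 miRNAs with enough counts for a test, 26 (4.04%) differed between the treatments, of which 20 (3.11%) were higher and 6 (0.933%) were lower in alkali than in salt. A miRNA was called at an adjusted p under 0.05 from edgeR's quasi-likelihood test and a fold change over 1.5. Members of a family can have identical counts in all 6 libraries, and the 26 called miRNAs held 18 distinct count profiles, 12 higher and 6 lower. All 20 higher miRNAs were 21 nt long, and the 6 lower ones were of 24 nt (5) or 23 nt (1). The 3 alkali libraries lay wholly above the 3 salt libraries for all 20 and wholly below them for all 6. Over all miRNAs tested, the alkali libraries lay wholly above in 14.6% and wholly below in 9.95%. The median log2 fold change over all miRNAs tested was -0.07, and without TMM scaling it was -0.28, so changes are read against that shift. The seedlings were sequenced whole, so fewer cells of a type and less RNA per cell cannot be told apart, and a table of miRNAs offers no agreed markers of cell types to check.

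**Figure D1:**
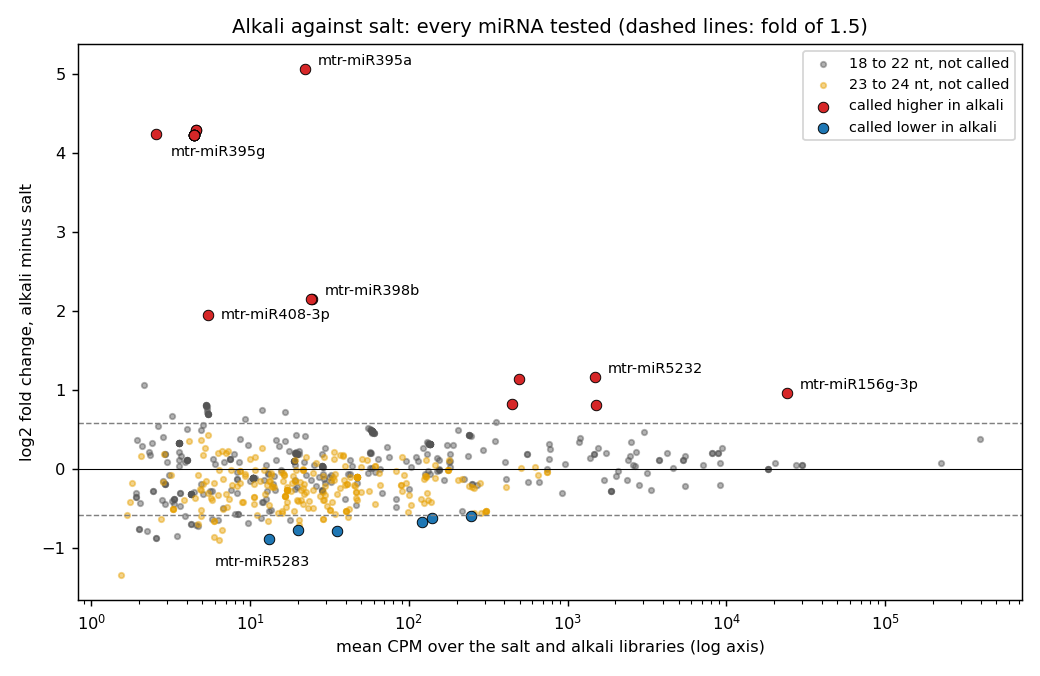
Change of each of the 643 miRNAs tested, with the mean CPM over the 6 libraries on a log axis and the log2 fold change, alkali minus salt, on the vertical axis. Red points are the 20 called higher and blue points the 6 called lower, the dashed lines mark a fold of 1.5, and the miR395 miRNAs stand above 4 on the log2 scale.

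The largest difference between the treatments was in miR395, the sulfate family. All 12 of its 12 tested members were called higher in alkali, against 3.11% of all miRNAs tested, and their median log2 fold change was 4.23. In each salt library these 12 had fewer than 10 counts, so they passed the count filter through the alkali libraries alone. An entry this rare in salt was tested only where it was high in alkali, so 12 of 12 is no independent result. mtr-miR395a was at 1.04, 1.88 and 1.104 CPM in salt and at 58.5, 35.7 and 35.0 CPM in alkali, which came from 5, 7 and 9 counts in SS1, SS2 and SS3 and 310, 214 and 151 counts in AS1, AS2 and AS3. The lowest alkali library was therefore far above the highest salt library, and in distilled water the level was 2.67, 2.52 and 5.23 CPM. The mean was 1.34 ± 0.467 CPM (SD, n = 3) in salt and 43.1 ± 13.4 CPM (SD, n = 3) in alkali, a 33.4-fold difference with a log2 fold change of 5.06 (standard error 0.326, adjusted p = 3.90e-10 by edgeR). Leaving out any 1 library gave 4.77 to 5.29.

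The other miR395 entries were rare in salt. mtr-miR395c, which has the same count in each library as mtr-miR395f, had 0, 4 and 3 counts in salt and 66, 42 and 28 in alkali. That is 0, 1.07 and 0.368 CPM against 12.5, 7.01 and 6.49 CPM, with 0, 0.839 and 0.187 CPM in distilled water. The log2 fold change was 4.29 (standard error 0.545, adjusted p = 1.03e-05 by edgeR), and the salt counts were so low that its size is less certain than that of mtr-miR395a. A further 8 entries (mtr-miR395d, e, i, j, l, m, n and o) had 1 profile among them, with 66, 39 and 26 counts in alkali and a log2 fold change of 4.23. mtr-miR395g, the entry with the changed first base, had 0, 1 and 3 counts in salt and 38, 25 and 14 in alkali, or 7.17, 4.17 and 3.24 CPM in alkali. Its log2 fold change was 4.24 (standard error 0.627, adjusted p = 4.78e-05 by edgeR), close to that of the entries that start with A.

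The 3 remaining entries of the family, named here after their values were seen, were too rare for a test. mtr-miR395h, which differs from mtr-miR395a by C21U, had 0, 1 and 2 counts in salt and 17, 11 and 11 in alkali. mtr-miR395k had 0, 0 and 5 counts in salt and 12, 1 and 6 in alkali, so its groups overlapped. mtr-miR395b had at most 2 counts in a salt library and 3 in an alkali library. The 12 entries called hold 4 distinct profiles and not 12 independent measurements. mtr-miR395a and mtr-miR395c carry different counts for 1 mature sequence, and the sources used here do not say how such reads were divided, so the level of a single entry is uncertain.

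**Figure D2:**
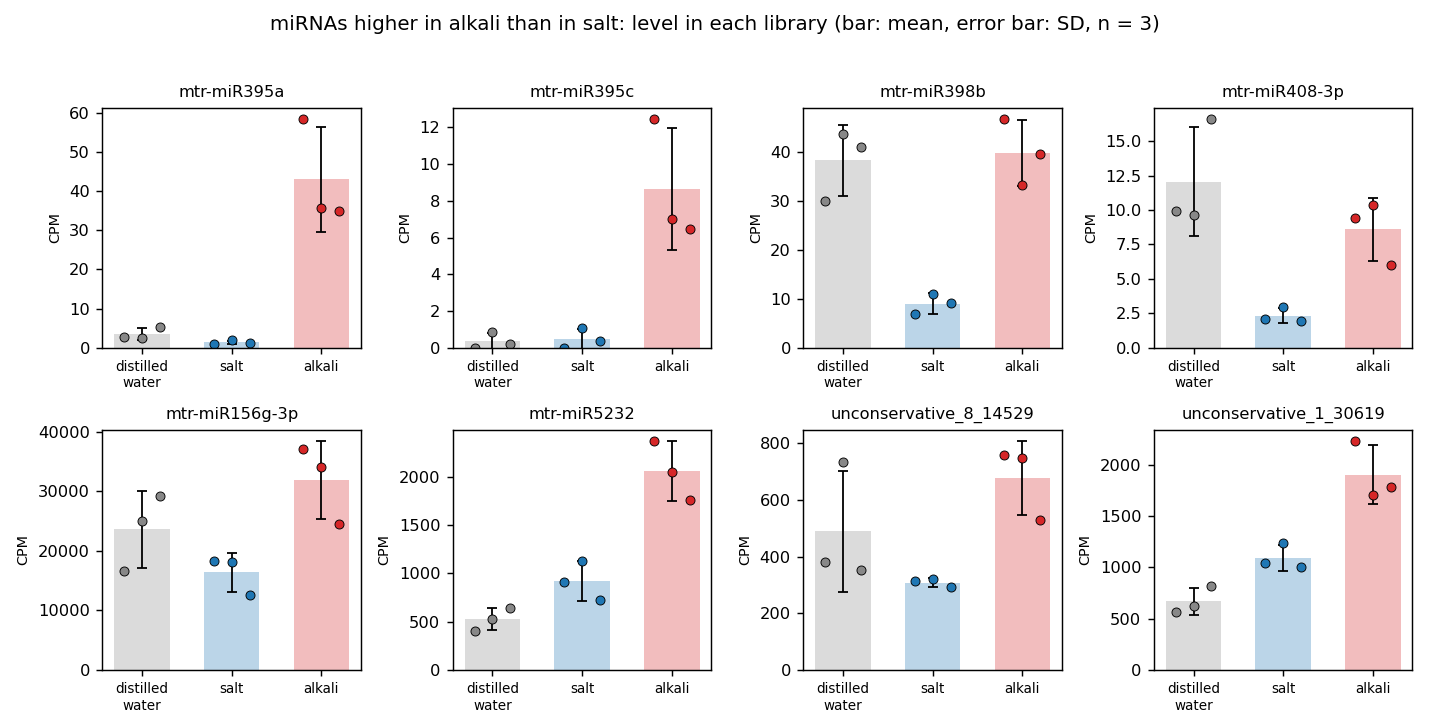
CPM of 8 miRNAs called higher in alkali, by treatment, with a point per library, a bar at the mean and an error bar of 1 SD (n = 3), each panel on its own linear axis from 0. In all 8 panels the alkali points lie above the salt points. The distilled water points, which entered no test of the main analysis, lie near the alkali points for mtr-miR398b and near the salt points for mtr-miR395a.

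The copper families came next in size. Of 6 tested members of miR397, miR398 and miR408, 3 were called higher in alkali and 0 lower, where 3.11% of all miRNAs were higher and 0.933% lower, and the median log2 fold change was 0.99 (0.76 without TMM scaling). Of the 6, 4 lay above 0 and 2 below. mtr-miR398b and mtr-miR398c share 1 sequence and nearly the same counts. The number of calls and the median thus count that measurement more than once, and the median does not describe the list as a whole. mtr-miR398b, whose family targets copper and zinc superoxide dismutases in Arabidopsis, was at 6.84, 10.99 and 9.20 CPM in salt and at 46.8, 33.2 and 39.6 CPM in alkali. The groups did not overlap, and the distilled water libraries were at 30.03, 43.8 and 41.1 CPM. Its log2 fold change was 2.15 (4.44-fold, standard error 0.234, adjusted p = 1.78e-06 by edgeR), and mtr-miR398c, of the same sequence, differed from it by 3 counts in 1 library. mtr-miR408-3p, whose family targets plantacyanin and laccases in Arabidopsis, was at 2.07, 2.95 and 1.96 CPM in salt and at 9.44, 10.3 and 6.02 CPM in alkali. In distilled water it was at 9.95, 9.65 and 16.6 CPM. For mtr-miR408-3p the log2 fold change was 1.94 (3.85-fold, standard error 0.339, adjusted p = 4.26e-04 by edgeR), and it rested on 10 to 16 counts per salt library and 26 to 62 per alkali library. The opposite arm, mtr-miR408-5p, was too rare for a test, with 5, 2 and 3 counts in salt and 12, 7 and 5 in alkali.

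The rest of the copper list was not called. mtr-miR398a-3p has the seed of mtr-miR398b but lay lower in alkali, at 3.96, 3.67 and 2.78 CPM, than in salt, at 5.18, 6.97 and 5.52 CPM. The groups did not overlap, and the log2 fold change of mtr-miR398a-3p was -0.73 (standard error 0.325, adjusted p = 0.191 by edgeR), so it did not pass. The other arm of that precursor, mtr-miR398a-5p, had 12.2, 16.9 and 17.3 CPM in salt and 9.25, 8.68 and 14.6 CPM in alkali, with overlapping groups (log2 fold change -0.54, standard error 0.234, adjusted p = 0.191 by edgeR, and 0.0252 without AS3). Inside each library the ratio of mtr-miR398b to mtr-miR398a-3p counts was 1.32, 1.58 and 1.67 in salt and 11.8, 9.05 and 14.2 in alkali, with 2.91, 5.10 and 3.39 in distilled water. This ratio does not depend on the scaling of the libraries. Its salt and alkali values cannot overlap where mtr-miR398b lies wholly above salt and mtr-miR398a-3p wholly below, so this is no further support. mtr-miR397-5p, whose family targets laccases in Arabidopsis, was at 2.70, 4.56 and 3.43 CPM in salt and 3.96, 3.50 and 3.24 CPM in alkali, with a log2 fold change of 0.03 (standard error 0.362, adjusted p = 0.963 by edgeR) that turned negative without TMM scaling. At an unadjusted p under 0.05 and a fold over 1.5, 1 member of the copper list was lower (mtr-miR398a-3p), and DESeq2 and limma-voom called 0 lower.

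Of the 16 tested members of miR156, the family that targets SPL transcription factors and holds plants in the juvenile phase, 2 were called, both higher in alkali (3.11% over all miRNAs), and both come from the mtr-miR156g precursor. The list mixes entries of the 5p and the 3p arms, and whether a 3p arm acts on SPL genes was not tested. mtr-miR156g-3p was the most abundant of the called miRNAs, at 18287, 18179 and 12643 CPM in salt and 37069, 34112 and 24548 CPM in alkali. The groups did not overlap, and the distilled water libraries were at 16574, 25033 and 29192 CPM. Its log2 fold change was 0.96 (1.95-fold, standard error 0.193, adjusted p = 0.00204 by edgeR). The other arm, mtr-miR156g-5p, was at 353, 336 and 274 CPM in salt and 608, 586 and 505 CPM in alkali, again with no overlap, and at 422, 440 and 618 CPM in distilled water. For mtr-miR156g-5p the log2 fold change was 0.82 (1.76-fold, standard error 0.147, adjusted p = 5.99e-04 by edgeR). The 3p arm had 46.1 to 54.1 counts for each count of the 5p arm in salt and 48.6 to 61.0 in alkali, ranges that overlap.

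The remaining 14 members of miR156 were not called, and the median log2 fold change over all 16 was 0.17, which was -0.03 without TMM scaling. mtr-miR156b-5p, an abundant member of 20 nt, was at 7218, 9378 and 5913 CPM in salt and 10808, 8283 and 6857 CPM in alkali, so the groups overlapped (log2 fold change 0.21, standard error 0.191, adjusted p = 0.628 by edgeR). mtr-miR156a had a log2 fold change of 0.13 (standard error 0.182, adjusted p = 0.746 by edgeR) and mtr-miR156b-3p of 0.36 (standard error 0.151, adjusted p = 0.1797 by edgeR). Inside a library, the count of mtr-miR156g-3p was 2.53, 1.94 and 2.14 times that of mtr-miR156b-5p in salt and 3.43, 4.12 and 3.58 times in alkali, without overlap. In distilled water it was 5.84, 6.69 and 5.55 times.

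A further 3 miRNAs of 21 nt, of which 1 is known and 2 are predicted, were higher in alkali. mtr-miR5232 was at 907, 1132 and 724 CPM in salt and 2374, 2056 and 1761 CPM in alkali, and at 406, 531 and 644 CPM in distilled water. Its groups stood well apart, with a log2 fold change of 1.16 (2.24-fold, standard error 0.173, adjusted p = 4.92e-05 by edgeR). The predicted miRNA unconservative_8_14529, named as in the count table, was at 313, 321 and 291 CPM in salt and 758, 748 and 528 CPM in alkali. Its distilled water libraries spread more widely, at 381, 734 and 351 CPM, and its log2 fold change was 1.14 (2.20-fold, standard error 0.156, adjusted p = 1.60e-05 by edgeR). unconservative_1_30619 was at 1043, 1235 and 1000 CPM in salt and 2235, 1704 and 1782 CPM in alkali, and at 565, 623 and 816 CPM in distilled water. Its log2 fold change was 0.80 (1.75-fold, standard error 0.157, adjusted p = 0.00151 by edgeR), and neither of the predicted miRNAs overlapped between salt and alkali.

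All 20 higher calls remained in every alternative in which the miRNA could be fitted, among them DESeq2, limma-voom, library totals without TMM, and leaving out each library. When 100 counts were required in 3 libraries, 12 of the 20 miRNAs were no longer tested and the other 8 remained.

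The 6 miRNAs that were lower in alkali differed by 1.51-fold to 1.85-fold, and 3 of them belong to miR5205. mtr-miR5205a, of 23 nt, was at 171.7, 130 and 143 CPM in salt and at 87.6, 93.6 and 96.4 CPM in alkali, and at 199, 166.8 and 153 CPM in distilled water. Its alkali libraries were close together and below every salt library, with a log2 fold change of -0.68 (1.60-fold lower, standard error 0.150, adjusted p = 0.00574 by edgeR). mtr-miR5205b was at 183, 154 and 175 CPM in salt and 97.2, 118 and 118 CPM in alkali, with 231, 191 and 168.9 CPM in distilled water. Its groups did not overlap either (log2 fold change -0.62, standard error 0.148, adjusted p = 0.0119 by edgeR). mtr-miR5205d was at 327, 289 and 271 CPM in salt and 163, 196 and 230 CPM in alkali, with 406, 313 and 296 CPM in distilled water. For mtr-miR5205d the log2 fold change was -0.59 (standard error 0.152, adjusted p = 0.0232 by edgeR), just over the fold limit. mtr-miR5205c, which has the sequence of mtr-miR5205d, lay just short of the limit and was not called (log2 fold change -0.56, 1.48-fold lower, adjusted p = 0.0306 by edgeR), and these 2 entries of 1 sequence thus fell on different sides of the limit.

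The seed of mtr-miR5205a differs from that of mtr-miR5205b and mtr-miR5205d, but the 3 sequences share a run of 10 bases, shown in capitals.
mtr-miR5205a: cauacaauuuGGGACGGAGGgag
mtr-miR5205b: cuuauaauuaGGGACGGAGGgagu
mtr-miR5205d: cuuauaauuaGGGACGGAGGuagu
The run occurs in 4 of the 135 mature sequences at hand (2.96%), and the fourth is mtr-miR5205c. These sequences were given only for miRNAs that the study reports as differentially expressed. They are thus a selected part of the 905 entries, and the share over all entries is not known. Where reads of such similar sequences were counted for more than 1 entry, the entries are not independent.

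Of the other lower miRNAs, mtr-miR5283 was at 18.2, 16.6 and 16.6 CPM in salt and 8.68, 8.18 and 11.1 CPM in alkali, and at 16.2, 12.8 and 17.005 CPM in distilled water. It had the largest decrease of the called miRNAs, with a log2 fold change of -0.89 (1.85-fold lower, standard error 0.209, adjusted p = 0.0108 by edgeR), from 62 to 135 counts per salt library and 46 to 49 per alkali library. mtr-miR5277 was at 23.6, 25.7 and 26.4 CPM in salt and 12.8, 15.7 and 16.0 CPM in alkali, with 22.4, 20.98 and 20.0 CPM in distilled water. Its salt libraries agreed closely and its alkali libraries were all lower (log2 fold change -0.77, standard error 0.201, adjusted p = 0.0251 by edgeR). The predicted unconservative_1_31442 was at 48.7, 41.0 and 42.9 CPM in salt, 25.1, 20.2 and 32.2 CPM in alkali and 20.6, 15.5 and 8.78 CPM in distilled water. The log2 fold change of unconservative_1_31442 was -0.78 (standard error 0.209, adjusted p = 0.0289 by edgeR), and its alkali libraries lay wholly below the salt ones.

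**Figure D3:**
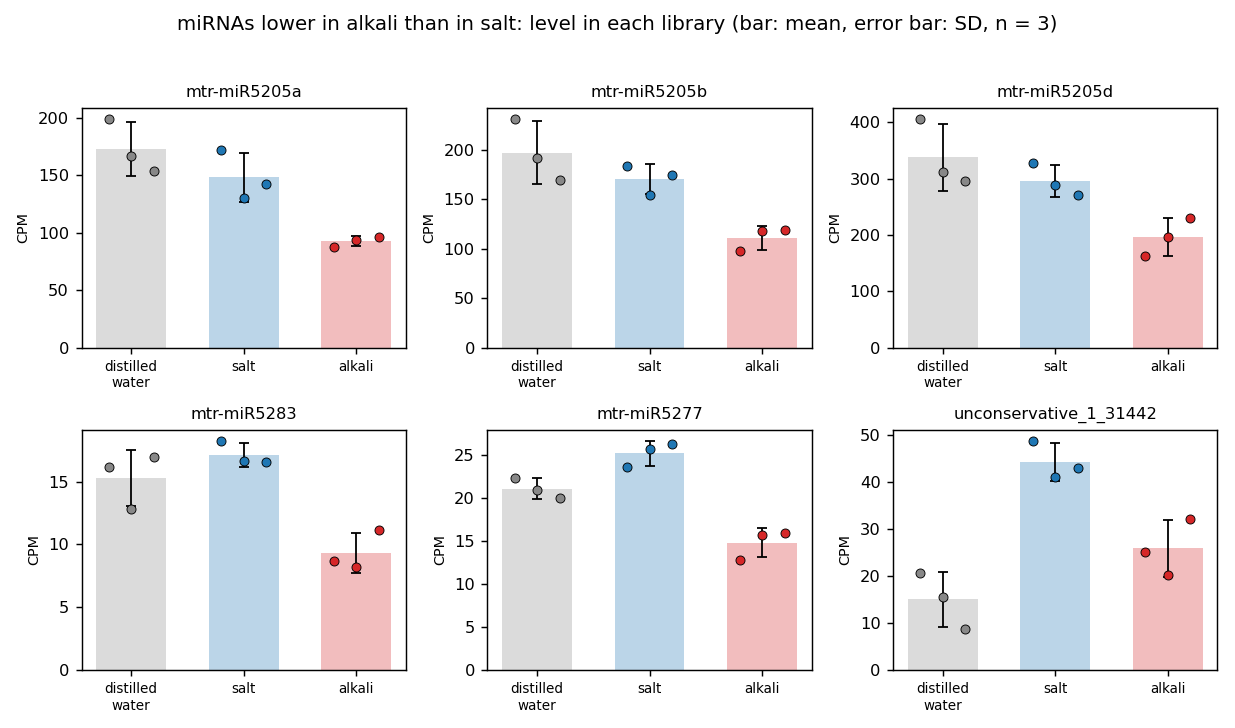
CPM of the 6 miRNAs called lower in alkali, by treatment, with a point per library, a bar at the mean and an error bar of 1 SD (n = 3), each panel on its own linear axis from 0. The alkali points lie below the salt points in all 6 panels, with differences of 1.51-fold to 1.85-fold.

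The lower calls depended on single libraries. Without AS2 all 6 were lost, with adjusted p of 0.0628 for mtr-miR5205a, 0.0703 for mtr-miR5205b, 0.122 for mtr-miR5205d and mtr-miR5283, 0.117 for mtr-miR5277 and 0.187 for unconservative_1_31442 by edgeR. Without SS1, mtr-miR5205a and mtr-miR5205b (both 0.0776), mtr-miR5205d (0.131) and unconservative_1_31442 (0.176) lost their calls. Without SS3, mtr-miR5205b (0.0555), mtr-miR5277 (0.107) and unconservative_1_31442 (0.0604) were lost. Without AS1 the adjusted p was 0.0574 for mtr-miR5205d and 0.0560 for mtr-miR5277, while mtr-miR5205b fell to a log2 fold change of -0.54, under the fold limit. With all 9 libraries fitted together, mtr-miR5205d (0.0928) and unconservative_1_31442 (0.0970) were lost. mtr-miR5205d kept its call in 8 of 17 alternatives, and was also lost by DESeq2 (log2 fold change -0.56), with the size factors of DESeq2 (-0.56), with no filter (-0.57), with identical profiles once (-0.57) and with the covariate of miRNA counts per clean read (-0.51). With that covariate mtr-miR5205b was lost too (-0.55). The direction stayed negative in all of these fits. The number called lower was 24 without SS2 and 42 without AS3, against 2 without SS1, 4 without SS3 or AS1 and 0 without AS2, where 29 had an unadjusted p under 0.05 and a fold over 1.5 in that direction (24, or 3.73% of those tested, with all 6 libraries). The number called higher was 21 to 24 when SS1, SS2, SS3, AS1 or AS2 was left out and 55 without AS3. The scaling moved the lower calls too: library totals without TMM gave 20 higher and 22 lower, so 47.6% of the calls were higher against 76.9% with TMM, and library sizes of clean reads gave 20 and 18 (52.6%).

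**Figure D4:**
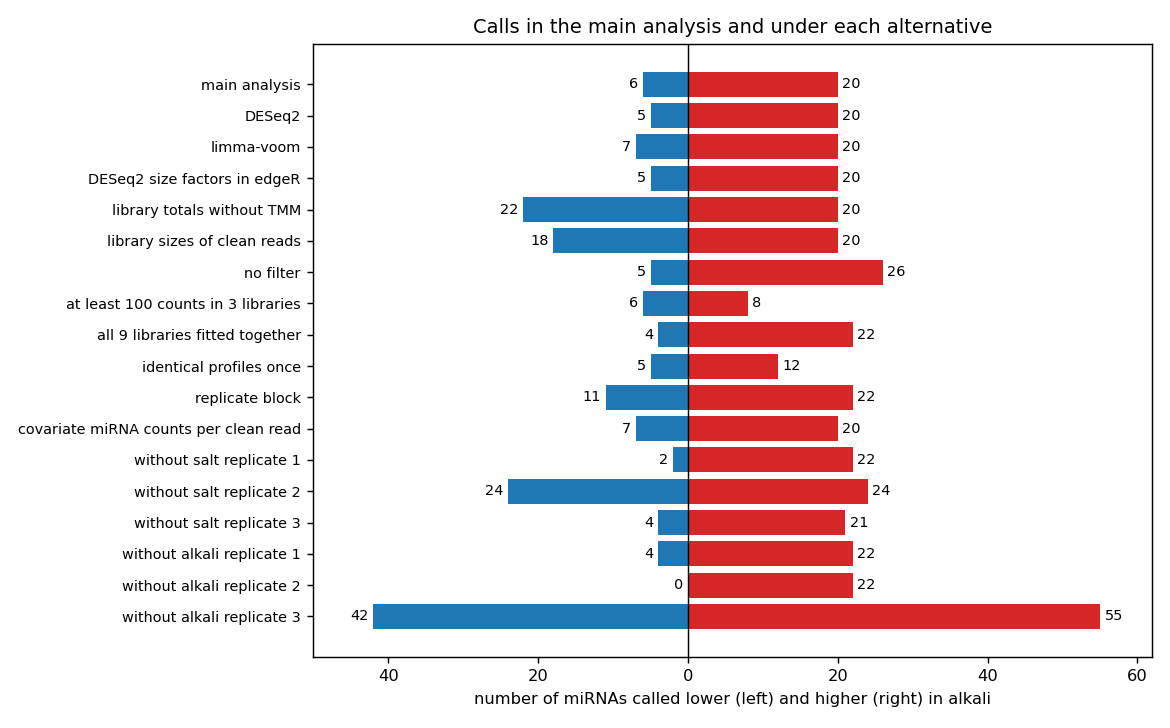
Number of miRNAs called higher (red, to the right) and lower (blue, to the left) in alkali in the main analysis and under 17 alternatives that keep the adjusted p and the fold limit. Among those plotted, the higher count lies between 8 and 26 except without AS3, where it is 55, and the lower count runs from 0 without AS2 to 42 without AS3.

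The lower calls came from the lengths of 23 and 24 nt, where most miRNAs lay lower in alkali. Of the 102 tested known miRNAs of 23 or 24 nt, 5 were called lower and 0 higher, where 0.933% of all miRNAs were called lower. Of these 102, 91 had a log2 fold change below 0, where 368 of all 643 tested did. Their median was -0.30, against -0.07 over all miRNAs tested, and it stayed negative at -0.51 without TMM scaling. Of the 143 predicted miRNAs of 23 or 24 nt, 1 was called lower and 119 lay below 0, with a median of -0.17. Among the 346 known miRNAs of 20 to 22 nt, 18 were called higher and 0 lower, where 3.11% of all miRNAs were called higher, with a median of 0.10 that was -0.14 without TMM scaling, and of the 48 predicted ones 2 were called higher. Without AS3 the known miRNAs of 20 to 22 nt called higher were 53. The known miRNAs of 23 or 24 nt called lower were 27 without AS3 and 20 without SS2, against 2 without SS1 or AS1 and 0 without AS2, and 14 without TMM scaling. The predicted ones were 10 without AS3, 3 without SS2 and 0 without SS1, SS3 or AS2. In the known 23 and 24 nt class 28 of 102 lay wholly below the salt libraries and 0 wholly above, where 9.95% of all miRNAs lay wholly below. Many entries in these classes share a family or a sequence, and miRNAs are not replicates of a treatment, so these are descriptions of the lists.

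**Figure D5:**
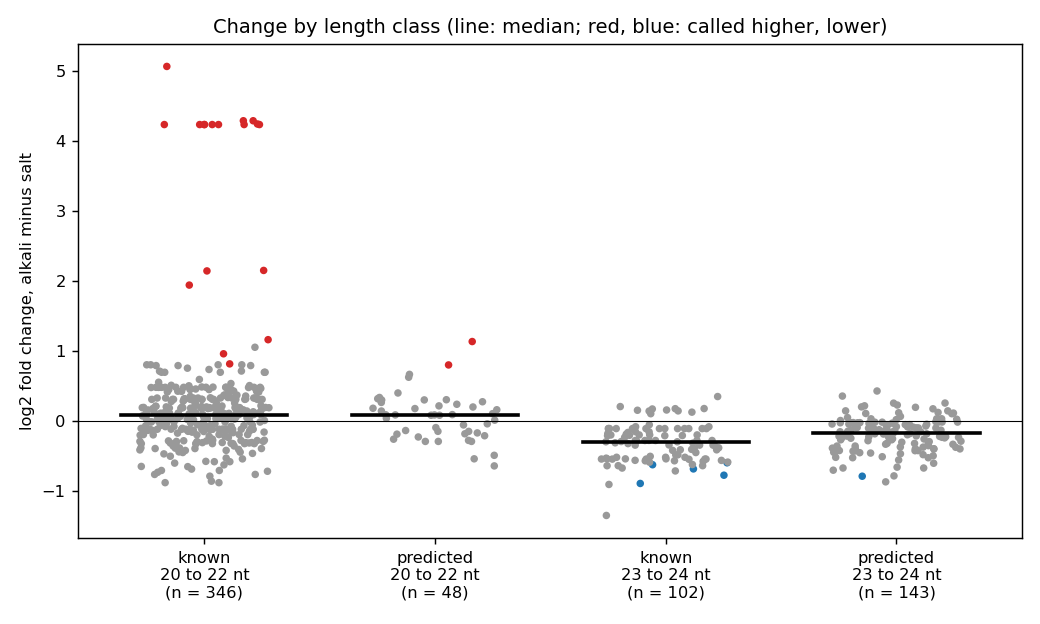
Log2 fold change, alkali minus salt, of the miRNAs tested in 4 classes of status and length, with a point per miRNA and a black line at the median. Red points were called higher and blue points lower, and the medians of the classes of 23 to 24 nt lie below 0 at -0.30 (known) and -0.17 (predicted).

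A further set of miRNAs of 24 nt passed the adjusted p and not the fold limit. In all, 13 miRNAs were lower at the adjusted p alone (2.02% of those tested), of which 7 missed the fold limit. These 7 were mtr-miR5205c, 5 members of miR5281 and the predicted unconservative_3_38545. All 6 members of miR5281 lay below 0 with no overlap of the groups, where 9.95% of all miRNAs lay wholly below. Their median log2 fold change was -0.54, but 0 were called by edgeR, DESeq2 or limma-voom. The 6 members hold 4 distinct profiles, and 5 of them share 1 mature sequence, so they are not independent. mtr-miR5281d was at 384, 289 and 342 CPM in salt and 201, 233 and 254 CPM in alkali (log2 fold change -0.56, standard error 0.150, adjusted p = 0.0288 by edgeR). mtr-miR5281b, of the same sequence, had -0.54 (standard error 0.151, adjusted p = 0.0361 by edgeR), and both were below 1.5-fold. Without SS2 or AS3, 5 of the 6 were called, as they were without TMM scaling or with library sizes of clean reads. The 8 members of miR5284 hold 5 distinct profiles, and had a median of -0.54 and overlapping groups. At an unadjusted p under 0.05 and a fold over 1.5, 2 were lower, where 3.73% of all miRNAs were. Without SS2, 6 of the 8 were called lower, where 24 of all 667 tested were. Without AS3 it was 6 of the 8, where 42 of all 662 tested were. mtr-miR5284a spread from 12.1 to 33.8 CPM within alkali (log2 fold change -0.63, adjusted p = 0.191 by edgeR).

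As a share of all miRNA counts, no length class passed a test across libraries. Known miRNAs of 23 or 24 nt took 0.628% ± 0.115 (SD, n = 3) of the counts in salt and 0.421% ± 0.109 (SD, n = 3) in alkali (exact permutation p = 0.2, adjusted p = 0.5), and predicted ones 1.11% ± 0.0940 and 0.888% ± 0.182 (exact permutation p = 0.2, adjusted p = 0.5). Known miRNAs of 21 nt took 50.4% ± 6.25 in salt and 46.8% ± 1.56 in alkali (exact permutation p = 0.5), and those of 22 nt 37.0% ± 6.69 and 41.9% ± 2.05 (exact permutation p = 0.3). A two-sided exact test of 3 libraries against 3 cannot give a p below 0.1, and 5 classes were tested. The direction of the 21 nt and 22 nt shares reversed when the most abundant entry, mtr-miR5213-5p, was left out of the counts.

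Several families leaned one way without a call. All 15 tested members of miR2111, which moves from shoot to root in legumes and targets the nodulation regulator TML, lay above 0. Over all 643 tested, 275 did. The median log2 fold change of the 15 was 0.76 (0.55 without TMM scaling). For 14 of them the alkali libraries lay wholly above the salt libraries, where this held for 14.6% of all miRNAs, and 14 passed the fold limit at an unadjusted p under 0.05 (6.07% of all miRNAs), but 0 passed once adjusted. mtr-miR2111d-5p was at 3.52, 3.22 and 4.41 CPM in salt and 7.17, 5.01 and 8.11 CPM in alkali, from 12 to 38 counts per library, and at 8.88, 6.29 and 8.97 CPM in distilled water. The log2 fold change of mtr-miR2111d-5p was 0.81 (standard error 0.318, adjusted p = 0.138 by edgeR), and 0 members were called in any alternative that kept the adjustment. The 15 members hold 7 distinct profiles, but the 14 without overlap share 1 mature sequence and nearly the same counts. They are therefore not 14 independent measurements. mtr-miR2111l, of another sequence, had overlapping groups (log2 fold change 0.42, adjusted p = 0.263 by edgeR).

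In miR2592, a large Medicago family, 64 of the 68 tested members lay above 0, where 275 of all 643 tested did. Their median log2 fold change was 0.31 (0.09 without TMM scaling). By edgeR, DESeq2 or limma-voom 0 were called (1 at an unadjusted p under 0.05 and a fold over 1.5). For 41 of the 68 the alkali libraries were wholly above the salt ones, where this held for 14.6% of all miRNAs, and the 68 hold 30 distinct profiles. mtr-miR2592ae was at 9.95, 10.99 and 6.38 CPM in salt and 17.2, 14.2 and 12.7 CPM in alkali (log2 fold change 0.74, standard error 0.235, adjusted p = 0.0838 by edgeR). Without AS3, 23 members of the family were called higher, where 55 of all 662 tested were, and without SS2 it was 1. mtr-miR2676c, of a family whose 6 members all lay below 0, was at 16.9995, 13.1 and 12.5 CPM in salt and 6.61, 10.2 and 10.9 CPM in alkali (log2 fold change -0.62, adjusted p = 0.129 by edgeR).

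Among conserved regulators of development other than miR156, 7 lists had no call. By edgeR, DESeq2 and limma-voom the count was 0 among the 14 that act on auxin signalling (of miR160, miR393, miR390, miR167 and miR164), the 8 of miR166, the 4 of miR396, the 6 of miR171, the 2 of miR172, the 4 of miR169 and the 9 of miR159 with miR319. At an unadjusted p under 0.05 and a fold over 1.5, 2 of miR172 were lower, 1 of miR159 with miR319 was higher and 1 lower, and 0 of the other lists passed. mtr-miR159a, which targets MYB transcription factors, was at 247213, 206431 and 209427 CPM in salt and 278962, 218131 and 198942 CPM in alkali, with overlapping groups (log2 fold change 0.07, standard error 0.193, adjusted p = 0.844 by edgeR). mtr-miR319a-5p, an arm of the TCP regulator miR319, lay lower in alkali, at 16.4, 15.2 and 9.96 CPM against 22.2, 20.9 and 22.3 CPM in salt, and did not pass (log2 fold change -0.64, standard error 0.213, adjusted p = 0.0986 by edgeR), though it did without AS1 (adjusted p = 0.0151), without TMM scaling (0.0166) and with a covariate of miRNA counts per clean read (0.00441). Without AS3, 1 member of miR159 with miR319 was called higher. mtr-miR172b, which targets AP2-type transcription factors, was at 3.73, 3.48 and 2.82 CPM in salt and 2.08, 2.00 and 1.16 CPM in alkali, at 5 to 23 counts per library (log2 fold change -0.88, standard error 0.415, adjusted p = 0.203 by edgeR). The log2 fold change was 0.34 for mtr-miR167a, which targets auxin response factors, -0.38 for mtr-miR171e-3p, which targets GRAS genes, and -0.27 for mtr-miR396a-3p, an arm of the growth-regulating factor regulator miR396 (adjusted p = 0.1797, 0.248 and 0.296 by edgeR). In miR169, which targets NF-YA genes, the median of the 4 tested was 0.50 and the largest fold was 1.47. In this list 2 were called higher without SS2, AS1 or AS3 and with all 9 libraries fitted together, and 3 with no filter. Those fits can admit rarer entries, so the calls need not be of the 4 tested. mtr-miR169h and mtr-miR169i, too rare for the main test, share 1 sequence and the same counts, 2, 4 and 4 in salt and 11, 19 and 11 in alkali.

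Nor was any member called, or past the fold limit at an unadjusted p, among the 9 of the families that target NBS-LRR resistance genes or the 4 of miR162 and miR168, which target components of the miRNA pathway itself. mtr-miR1510a-3p had the smallest adjusted p of the NBS-LRR list, at 2424, 2454 and 2717 CPM in salt and 3172, 3869 and 3411 CPM in alkali. These groups did not overlap, but the difference was 1.38-fold (log2 fold change 0.46, standard error 0.150, adjusted p = 0.0973 by edgeR). The 21 entries of miR399, the family induced by phosphate shortage, had at most 6 counts in a library and could not be tested, so a difference between the treatments was not detectable at this depth. mtr-miR5213-5p, the most abundant miRNA, was at 252914, 445413 and 328856 CPM in salt and 469790, 471178 and 392392 CPM in alkali (log2 fold change 0.38, standard error 0.214, adjusted p = 0.325 by edgeR). mtr-miR5211, whose distilled water libraries had 1.07 to 1.87 CPM, was at 70.5, 87.4 and 65.5 CPM in salt and 70.0, 49.4 and 61.2 CPM in alkali, with overlapping groups (log2 fold change -0.30, standard error 0.174, adjusted p = 0.328 by edgeR).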

How the data were processed

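Small RNA was sequenced from whole R108 seedlings. Before deposit, the authors removed adaptors and poor bases, kept reads of 18 to 30 nt, discarded those of other non-coding RNAs using Bowtie, placed the remainder on the genome by miRDeep-P and deposited whole-number counts for each known or predicted miRNA. The authors also deposited TPM values, which equal the counts divided by the miRNA total of the library to within 4.86e-05, and the count table gives the mature length in nt. The counts were used. How reads of identical sequences were assigned is not given in the sources used here. Columns were matched to libraries by the deposited labels, with 0 unmatched.

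For the 6 libraries the counts were fitted by edgeR 4.0.16 in R 4.3.3 (filterByExpr with a minimum count of 10, TMM, robust quasi-likelihood fit), with Benjamini-Hochberg adjustment over all 643 miRNAs. The standard error was taken from the fold change and the F statistic. Distilled water was scaled to the same reference library (AS3). The authors' DESeq 1.10.1 was not used. Principal components used log2 CPM with a prior count of 2. Alternatives were DESeq2 1.42.0, limma-voom (limma 3.58.1), other scalings and filters, all 9 libraries together, a replicate block, the miRNA yield per clean read as a covariate, and leaving out each library. Scripts were tested on simulated counts.

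The libraries, lists and naming rule were chosen with earlier results of these data known. miRNAs named are the called ones whose groups do not overlap (up to 15 each way, a shared profile taken once), in each list the most abundant member and at most 3 by smallest adjusted p, the most abundant miRNAs of the table, and those the study names. mtr-miR395h, mtr-miR395k, mtr-miR395b, mtr-miR398a-3p, mtr-miR397-5p, mtr-miR408-5p, mtr-miR156b-5p, mtr-miR5205c, mtr-miR169h and mtr-miR169i are outside that rule or were singled out after their values were seen. Medians of lists are descriptions, with no set test. Mature sequences are from the supplementary tables in which the study lists differentially expressed miRNAs.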

Additional observations from a re-analysis of the deposited data

How the results depend on the processing

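The 20 miRNAs higher in alkali kept their calls and direction in each alternative in which they could be fitted, and the 6 lower ones kept their direction. Depth limits the miR395, miR408 and miR2111 values, which rest on few counts per salt library, and miR399 entries were not testable. The number called higher was 8 with at least 100 counts in 3 libraries, 39 at an unadjusted p and 12 with identical profiles once, and 21 to 55 when 1 library was left out. The number called lower was 22 by library totals without TMM, 18 with library sizes of clean reads, 24 at an unadjusted p and 13 with no fold threshold, and 0 to 42 when 1 library was left out. The miR395 members higher were 1 with at least 100 counts, 4 with identical profiles once, and 12 to 13 when 1 library was left out. The known miRNAs of 20 to 22 nt higher were 6 with at least 100 counts, 36 at an unadjusted p and 10 with identical profiles once, and 19 to 53 when 1 library was left out. The known miRNAs of 23 to 24 nt lower were 14 without TMM, 14 with clean reads, 12 at an unadjusted p, 11 with no fold threshold and 3 with a covariate of miRNA counts per clean read, and 0 to 27 when 1 library was left out. The predicted miRNAs of 23 to 24 nt lower were 5 without TMM, 3 with clean reads, 0 with all 9 libraries, 5 at an unadjusted p, 2 with no fold threshold and 2 with the covariate, and 0 to 10 when 1 library was left out. With the replicate number as a block, 22 were higher and 11 lower, among them 8 known and 2 predicted of 23 to 24 nt. mtr-miR319a-5p then passed as well (adjusted p = 0.0252 by edgeR). The numbers share no stated origin, the deviations of same-numbered libraries had correlations of -0.20, -0.13 and 0.37, and only replicate 3 matched its own number best, so the block is a setting and not a pairing. Uncalled values changed sign in mtr-miR397-5p (-0.19 without TMM, -0.037 with clean reads, -0.082 with the covariate, and -0.12 to 0.19 when 1 library was left out, negative without SS1 or AS1), mtr-miR156a (-0.11 without TMM, -0.12 with the covariate, and -0.15 without AS1 to 0.38 without AS3), mtr-miR156b-5p (-0.0034 without TMM) and mtr-miR159a (-0.16 without TMM, -0.036 with the covariate, and -0.090 without AS1 to 0.22 without AS3). Left without mtr-miR5213-5p, the alkali minus salt share was 0.674 points for known 21 nt and -0.0753 points for known 22 nt. The causes of these changes were not tested.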
